A study of Mus musculus with 2 samples.

Results

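Natural killer (NK) cells were selected in silico from the second of 2 deposited sequencing runs, in which 560 of 20568 barcodes met the selection, of 43965 barcodes in the whole series. A barcode, the tag that stands for 1 droplet, was taken into the NK gate when it held at least 1 unique molecular identifier (UMI, 1 counted RNA molecule) of *Ncr1* (NKp46) or *Klrb1c* (NK1.1). It also had to hold 0 UMIs of the CD3 genes *Cd3e*, *Cd3d* and *Cd3g*, of the B cell gene *Cd79a* and of *Siglech*, a gene of plasmacytoid dendritic cells. Fewer than 5 UMIs of *C1qa* and *C1qb* together and fewer than 5 of the myeloid gene *Lyz2* were allowed. Of the 560 barcodes, 559 came from the PEP-619WW library and 1 from the PEP-WT library. In run 1 the same selection gave 50 PEP-WT barcodes and 37 PEP-619WW barcodes.

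The study used single cell 3′ RNA sequencing of live CD45+ cells from C57BL/6 mice with the wild type *Ptpn22* allele (PEP-WT) or homozygous for the autoimmunity-associated allele made by CRISPR editing (PEP-619WW). *Ptpn22* encodes the phosphatase PEP. By the methods, the mice were infected with the chronic lymphocytic choriomeningitis virus strain LCMV-cl13 and cells were taken 8 days later. Animals of a genotype were pooled, so each run holds 1 library per genotype. The methods give the organ as spleen, whereas the sample labels name liver, the Jurkat line and sorted tumor infiltrating cells, and no source used here states how the runs relate. The estimated cell numbers in the methods for its spleen libraries are the barcode numbers of both run 2 libraries. Those of run 1 are not given there, so infection and day of run 1 were taken as described for the study. Run, tissue and processing cannot be told apart in any comparison between runs, the comparison of run 2 PEP-619WW with run 1 PEP-WT differs in genotype as well, and with 1 library per group there was no replicate check and no test.

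NK cells are innate lymphocytes that kill without a rearranged antigen receptor. Activating receptors such as NKp46 and NKG2D and inhibitory Ly49 receptors set their response, perforin and granzymes kill the target, and chemokines such as CCL5 and XCL1 recruit other leukocytes. In the mouse, early CD27+ NK cells express *Tcf7*, later ones gain CD11b (*Itgam*), KLRG1 and S1PR5, and the transcription factors EOMES and T-bet (*Tbx21*) direct both steps. Type 1 innate lymphoid cells (ILC1) share NKp46 and NK1.1 with NK cells but are tissue resident and carry CD49a (*Itga1*) and CXCR6.

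The 4 libraries held 8576 to 14821 barcodes and 55504449 to 77916082 UMIs. Outside the gate, 6 melanocyte genes (*Mlana*, *Pmel*, *Dct*, *Tyr*, *Tyrp1*, *Sox10*) summed to 279 UMIs per 1000000 UMIs (CPM) in the run 2 PEP-WT library, 16.2 in run 2 PEP-619WW and under 1 in both run 1 libraries, whereas 6 hepatocyte genes summed to between 0.466 and 5.87. CD3+ barcodes made up 2.05% of run 2 PEP-WT, 19.3% of run 2 PEP-619WW, 26.2% of run 1 PEP-WT and 28.0% of run 1 PEP-619WW. The 2 libraries of run 2 thus differed in their makeup well beyond NK cells. No more than 49 barcode sequences were shared between any 2 libraries, and none was in the gate of both.

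In run 2 PEP-619WW, 559 of 11029 barcodes were in the NK gate, 5.07% (95% exact binomial interval 4.67 to 5.49). In run 2 PEP-WT, the share was 1 of 9539, or 0.0105% (0.000265 to 0.0584). Run 1 gave 50 of 14821 for PEP-WT, 0.337% (0.2505 to 0.445), and 37 of 8576 for PEP-619WW, 0.431% (0.304 to 0.594). The run 2 PEP-619WW share thus stood above those of the 3 other libraries, while the intervals of both run 1 genotypes overlapped. All intervals cover counting error only.

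For PEP-619WW, the difference between runs was also seen relative to CD3+ cells. Of the barcodes that were either CD3+ or in the NK gate, NK cells were 20.8% (19.3 to 22.4) in run 2 PEP-619WW, 1.27% (0.946 to 1.67) in run 1 PEP-WT and 1.52% (1.07 to 2.09) in run 1 PEP-619WW. In run 2 PEP-WT this was 1 of 197 barcodes, 0.508% (0.0129 to 2.80), an interval that overlaps that of run 1 PEP-WT. With every barcode thinned to 1000 UMIs, the shares were 4.03% of 9830 barcodes in run 2 PEP-619WW, 0.354% of 13843 in run 1 PEP-WT and 0.338% of 7403 in run 1 PEP-619WW. In run 2 PEP-WT, 0 of 8454 thinned barcodes passed, which allows a share of up to 0.0436%.

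**Figure D1:**
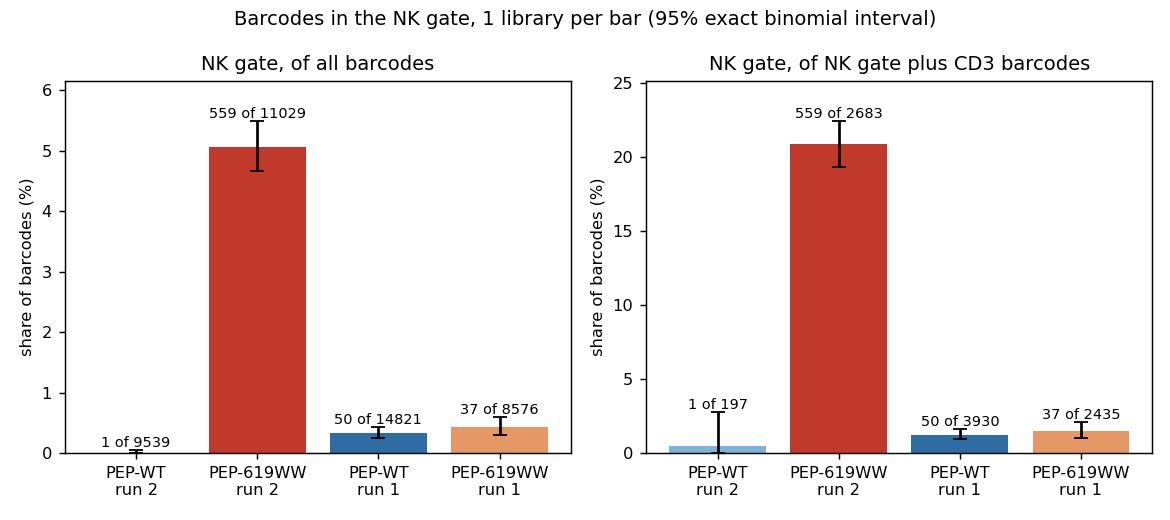
NK gate barcodes as percent of all barcodes (left) and of barcodes that were CD3+ or in the gate (right), for the 4 libraries; bars start at 0 and whiskers are 95% exact binomial intervals for counting error. Run 2 PEP-619WW stands at 5.07% and 20.8%, and no other library is above 0.431% and 1.52%.

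Free RNA can place a stray UMI in a cell that does not express the gene, so the same 2 genes were counted in other cell types. In run 2 PEP-619WW, 25 of 1968 barcodes rich in *C1qa* and *C1qb* held a UMI of *Ncr1* or *Klrb1c*, 1.27% at a median of 6874 UMIs, and 13 of 738 B cell barcodes did, 1.76% at a median of 1796 UMIs. In run 2 PEP-WT, 8 of 5839 *C1qa*- and *C1qb*-rich barcodes did, 0.137% at a median of 8057 UMIs. In that library, 1 barcode was in the gate, and 2319 met its other criteria without such a UMI, at a median of 1293 UMIs. By this count, the barcode in the gate cannot be told apart from one with a stray UMI. The B cell barcodes of run 2 PEP-WT, 0 of 10 with an upper limit of 30.8%, were too few to compare. In run 1, the share was 2.01% for PEP-WT and 3.24% for PEP-619WW in *C1qa*- and *C1qb*-rich barcodes, at medians of 10105.5 and 12356 UMIs, and 0.240% and 0.224% in B cell barcodes, at 2646 and 3311 UMIs. The run 1 gates held 50 PEP-WT and 37 PEP-619WW barcodes, beside 1905 and 1330 that met the other criteria without such a UMI. The gate shares of 0.337% and 0.431% are of all barcodes, including those that the gate excludes. The backgrounds are of single cell types at other depths. The gate shares therefore cannot be set directly against them, and the other NK genes were examined in each gate.

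Genes that the gate did not use were detected in most of the 559 barcodes. *Klre1*, *Klrk1* (NKG2D) and *Klrd1* (CD94), which encode lectin-like receptors, had a UMI in 79.1%, 85.9% and 86.4% of them, the granule gene *Nkg7* in 92.5%, *Gzma* in 84.3%, perforin (*Prf1*) in 68.0% and *Il2rb*, a subunit of the IL-15 receptor, in 89.8%. The run 1 gates carried the same genes: *Nkg7* was detected in 91.9% of PEP-619WW and 96.0% of PEP-WT gate barcodes, *Klre1* in 73.0% and 76.0%. The single PEP-WT barcode of run 2 did not. It held 734 UMIs in all, 1 of them *Klrb1c*, and 0 UMIs of *Ncr1*, *Klre1*, *Klrk1*, *Klrd1*, *Nkg7*, *Gzma*, *Prf1*, *Eomes* and *Il2rb*, beside 15 UMIs of *Apoe*, which macrophages express strongly. The run 2 NK gate is thus described below from PEP-619WW alone, and neither the genotypes of run 2 nor the PEP-WT gates of both runs were compared gene by gene.

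NK cells missed by the dropout of *Ncr1* and *Klrb1c* were sought with at least 2 of *Klre1*, *Klrk1* and *Nkg7* in barcodes that passed every other criterion. In run 2 PEP-WT, 6 of 2319 such barcodes qualified, 0.259%. In run 2 PEP-619WW, 132 of 2864 did, 4.61%. T cells can carry these 3 genes, and CD3+ barcodes made up 19.3% of run 2 PEP-619WW and 2.05% of run 2 PEP-WT, so T cells without a CD3 UMI cannot be told apart from missed NK cells here.

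The genes most concentrated in the run 2 PEP-619WW gate, by CPM over all other barcodes of the library and with at least 100 UMIs, were led by *Klra8* (79.96-fold) and *Klra4* (77.4-fold), activating Ly49 receptors of NK cells. *Styk1* (70.2-fold), *Khdc1a* (62.5-fold), *Gzma* (62.4-fold), *Klra9* (55.3-fold), *Adamts14* (48.8-fold), *Klrb1a* (43.4-fold), *Klra7* (42.9-fold) and *Xcl1* (41.5-fold) followed. These folds describe the gate, since it was drawn on the same cells, and reads of near-identical Ly49 genes may be split unevenly among them.

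Near its limits the run 2 PEP-619WW gate still held NK genes. The 142 barcodes with a single UMI of *Ncr1* and *Klrb1c* together had 2 of *Klre1*, *Klrk1* and *Nkg7* in 81.7%, at a median of 1938.5 UMIs, and the 417 with more in 94.7%, at 2827. The run 1 edges were weaker: 5 of 9 single-UMI barcodes had them in PEP-WT (55.6%) and 3 of 7 in PEP-619WW (42.9%). All of the 41 and 30 run 1 barcodes with more had them. In run 2 PEP-619WW, of 8 barcodes just inside the *Lyz2* limit, with 3 or 4 UMIs, 7 had these genes, and of 8 just outside it, with 5 or 6 UMIs, all 8 did. In run 2 PEP-WT, 1 barcode lay just outside this limit and otherwise passed, and it had these genes too, at 16268 UMIs. *Ncr1* and *Klrb1c* were both detected in 283 run 2 PEP-619WW barcodes (50.6%), *Klrb1c* alone in 181 (32.4%) and *Ncr1* alone in 95 (17.0%), at medians of 2902, 2310 and 2124 UMIs. Of the 9 run 1 PEP-WT barcodes with *Klrb1c* alone, 33.3% had *Klre1*, 44.4% *Klrd1*, 55.6% *Klrk1*, 55.6% *Gzma* and 77.8% *Nkg7*. *Cd74* was found in 66.7% of them and *H2-Aa* in 33.3%, both counted here among dendritic cell genes. Where both genes were detected, *Eomes* was found in 53.7% in run 2 PEP-619WW, 43.5% in run 1 PEP-619WW and 25.7% in run 1 PEP-WT.

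The run 2 PEP-619WW gate was then compared with each run 1 gate. Its UMIs were summed over barcodes, 1894985 in run 2 PEP-619WW against 141294 in run 1 PEP-619WW and 200255 in run 1 PEP-WT, and expressed as CPM with exact Poisson intervals. Median UMIs per gate barcode were 2566, 3777 and 2953.5, and the mitochondrial share was 2.22%, 2.28% and 2.05%. Against run 1 PEP-619WW, 2170 genes had enough UMIs to enter, of which 183 (8.43%) were at least 2-fold higher in run 2 and 38 (1.75%) at least 2-fold lower, with a median log2 ratio of 0.15. Against run 1 PEP-WT, 326 of 3089 genes (10.6%) were higher and 86 (2.78%) lower, with a median of 0.16. Both comparisons share the run 2 gate, so their results are given side by side and are not independent of each other.

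The excess of higher over lower genes follows in part from the entry rule, under which genes higher in the larger gate entered more easily. When entry rested on the mean of both CPM values instead, 101 genes were higher and 72 lower against run 1 PEP-619WW, and 204 and 154 against run 1 PEP-WT. With median-of-ratios scaling, the numbers were 119 and 50, and 216 and 112. As a yardstick, the 2 genotypes of run 1 differed by at least 2-fold in 104 of 2033 genes higher in PEP-619WW (5.12%) and 155 lower (7.62%), with gates of 37 and 50 barcodes. With gate genes left out, 67 genes were at least 2-fold higher against both run 1 gates and 13 lower. The genes that entered both comparisons were not counted, so these numbers have no share of all genes beside them.

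**Figure D2:**
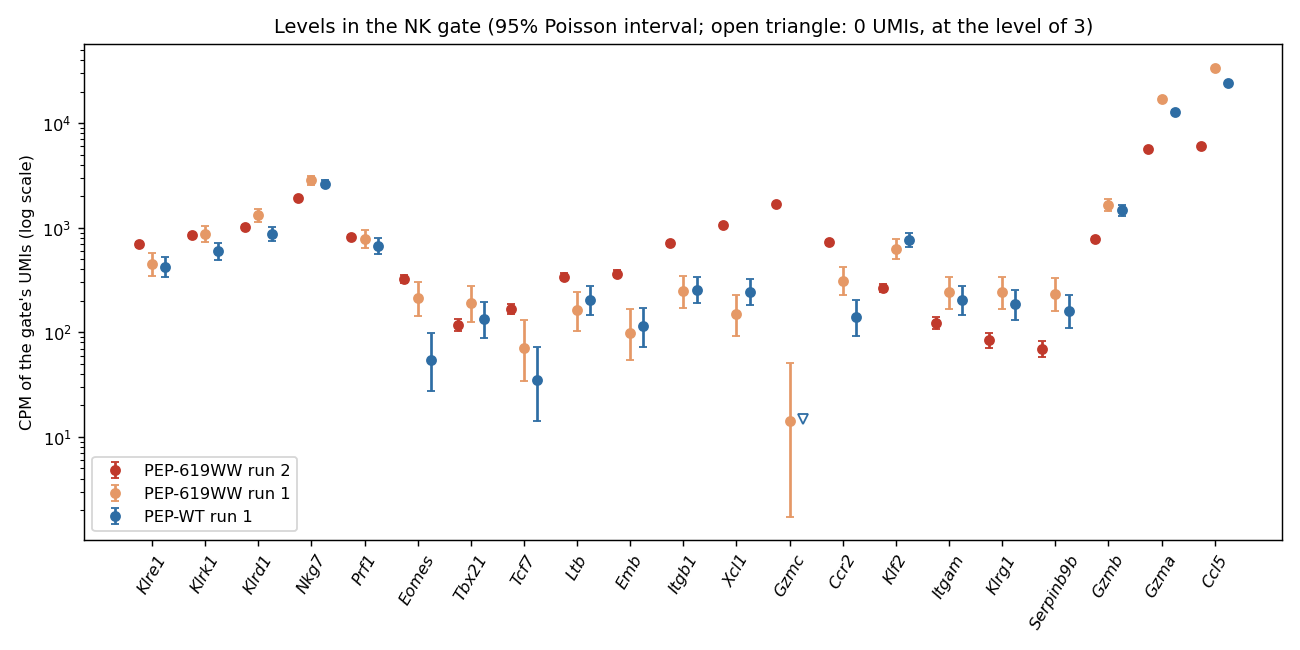
Level in CPM (log axis) of 21 genes in the NK gate of run 2 PEP-619WW, run 1 PEP-619WW and run 1 PEP-WT; whiskers are 95% exact Poisson intervals, and an open triangle marks 0 UMIs, drawn at the level of 3. *Gzmc* and *Xcl1* are higher in run 2 than in both run 1 gates, and *Ccl5*, *Gzma* and *Klrg1* are lower.

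Cytotoxic genes differed in opposite directions. Of 19 granule and death ligand genes, 14 entered against run 1 PEP-619WW, of which 3 were at least 2-fold higher in run 2 and 3 lower, with a median log2 ratio of 0.12 against 0.15 over all genes. Against run 1 PEP-WT, 5 of 14 were higher and 2 lower, with a median of 0.31 against 0.16. Over all genes, 8.43% and 10.6% were higher and 1.75% and 2.78% lower. In both comparisons *Gzma* and *Serpinb9b*, a serpin gene of the granzyme inhibitor family, were lower while *Gzmc*, *Gzmd* and *Gzme* were higher. With every barcode thinned to 1000 UMIs before gating, the log2 ratios of *Gzma* were -0.82 and -0.95, short of 2-fold, that of *Serpinb9b* against run 1 PEP-619WW was -0.59 (against run 1 PEP-WT it was -0.70 without UMIs of 7 genes of other cell types), and those of *Gzmc* were 1.87 and 4.43. *Prf1* stood at 815 CPM (775 to 856), 786 (646 to 946) and 674 (565 to 798) in run 2 PEP-619WW, run 1 PEP-619WW and run 1 PEP-WT, and its intervals overlapped in all 3 gates. Its log2 ratios were 0.05 (-0.23 to 0.34) and 0.27 (0.02 to 0.54), both short of 2-fold.

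*Gzma* (chr13:113093825-113100981, mm10, minus strand) encodes granzyme A, the tryptase-like protease of the granule. It was at 5602 CPM (5496 to 5709) in run 2 PEP-619WW, 17064 (16389 to 17759) in run 1 PEP-619WW and 12709 (12219.8 to 13212) in run 1 PEP-WT. The log2 ratio of run 2 was -1.61 (-1.67 to -1.54) against run 1 PEP-619WW and -1.18 (-1.24 to -1.12) against run 1 PEP-WT. The share of gate barcodes with a UMI was 84.3%, 86.5% and 78.0%, so the gates differed in the amount per barcode rather than in detection. *Gzmb*, which encodes the caspase-activating granzyme B, was at 777 CPM (738 to 818) against 1656 (1451 to 1882) and 1468 (1305 to 1646), with log2 ratios of -1.09 and -0.92, of which the second is short of 2-fold. It was detected in 51.7%, 83.8% and 80.0% of barcodes. CD3+ barcodes also differed in this direction, with log2 ratios of -1.56 and -1.20 for *Gzmb* and -0.47 and -1.48 for *Gzma*. *Serpinb9b* was at 69.1 CPM (57.8 to 82.0) against 234 (161 to 328) and 159.8 (109 to 226).

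*Gzmc* (chr14:56231441-56234656, mm10, minus strand) belongs to the granzyme cluster on chromosome 14 that also holds *Gzmb*, *Gzmd* and *Gzme*. It was at 1676 CPM (1618 to 1735) in run 2 PEP-619WW, 14.2 (1.71 to 51.1) in run 1 PEP-619WW, where it rested on 2 UMIs, and had 0 UMIs in run 1 PEP-WT. The log2 ratio was 6.89 (5.03 to 9.93) against run 1 PEP-619WW, and against run 1 PEP-WT the level was at least 112-fold higher, taking 3 UMIs per library as the floor. Few cells carried it: 13.4% of the run 2 gate barcodes had a UMI, 10.7% after thinning, and 1 barcode held 20.8% of the 3176 UMIs. CD3+ barcodes of the same libraries differed in the same direction, with log2 ratios of 2.84 and 4.26. *Gzmd* and *Gzme* were at 197 CPM (178 to 218) and 106 (91.9 to 122) in run 2 and had 0 UMIs in both run 1 gates, but 65.0% and 61.7% of their UMIs came from 1 barcode, and *Gzmd* was detected in 1.79% of barcodes. Counts within this granzyme family are uncertain where reads fit more than 1 member.

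**Figure D3:**
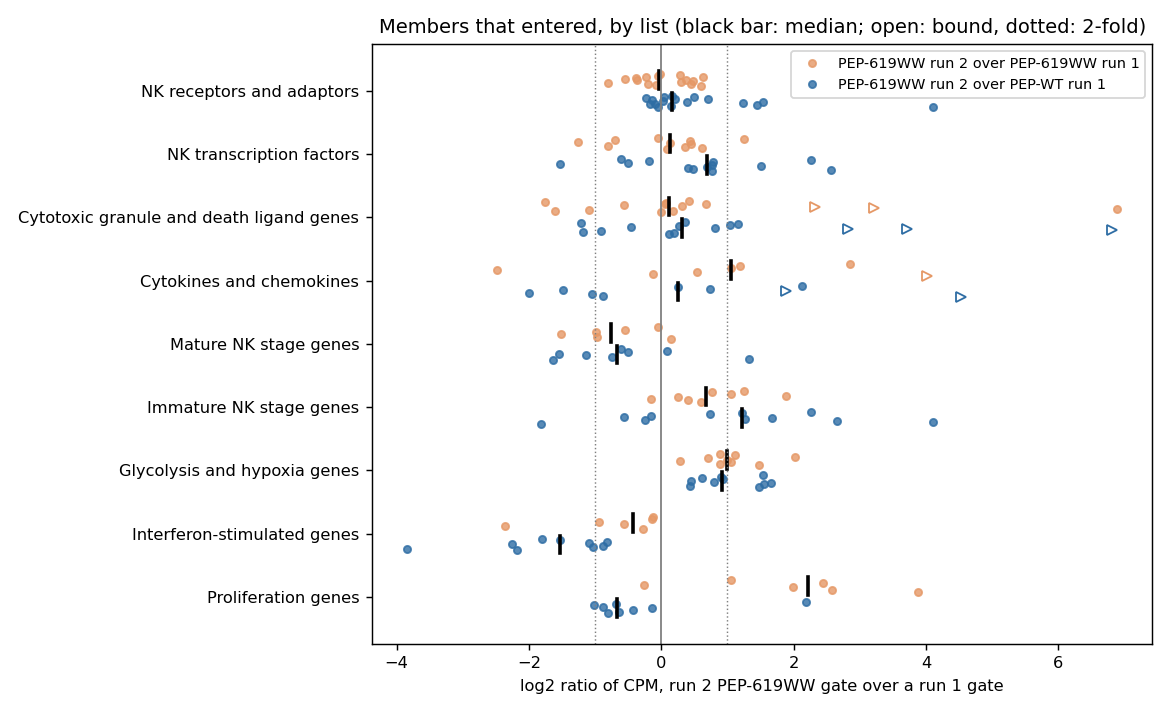
Log2 ratio of the run 2 PEP-619WW gate over the run 1 PEP-619WW gate and over the run 1 PEP-WT gate, 1 point per gene that entered, for 9 gene lists; the black bar is the list median, open points are bounds where a gate had 0 UMIs, and dotted lines mark 2-fold. Immature stage genes lie mostly above 0 and mature stage genes mostly below it, and the cytotoxic list holds genes past 2-fold in both directions.

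Chemokine genes also moved apart. *Ccl5*, which encodes a chemokine for T cells and monocytes, was at 6053 CPM (5943 to 6165) in run 2 PEP-619WW, 33823 (32871 to 34796) in run 1 PEP-619WW and 24319 (23641 to 25012) in run 1 PEP-WT. It was 5.59-fold lower than in run 1 PEP-619WW and 4.02-fold lower than in run 1 PEP-WT, although 89.4%, 97.3% and 96.0% of barcodes had a UMI. CD3+ barcodes differed in the same direction, by log2 ratios of -1.71 and -1.44, so lower *Ccl5* in run 2 was not particular to NK cells.

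*Xcl1*, whose product attracts XCR1+ dendritic cells, was higher. It was at 1068 CPM (1022 to 1116) in run 2 PEP-619WW, 149 (92.0 to 227) in run 1 PEP-619WW and 245 (181 to 323) in run 1 PEP-WT, log2 ratios of 2.85 (2.23 to 3.54) and 2.13 (1.72 to 2.57). It was detected in 46.9%, 10.8% and 22.0% of gate barcodes, and after thinning in 29.5%, 8.33% and 12.2%. A single barcode held 28.2% of its run 2 UMIs. In CD3+ barcodes the log2 ratio was 1.85 against run 1 PEP-619WW and -0.37 against run 1 PEP-WT. *Ccl1* was at 345 CPM (319 to 373) in run 2 with 0 UMIs in both run 1 gates, but 1 barcode held 48.3% of its UMIs. *Ccl3* and *Ccl4*, which encode inflammatory chemokines, were at 260.2 and 749 CPM, against 283 and 517 in run 1 PEP-619WW and 479 and 1543 in run 1 PEP-WT. *Ifng*, the signature cytokine of NK cells, was at 62.3 CPM (51.5 to 74.6) against 84.9 (43.9 to 148) and 175 (122 to 243). Of 15 cytokine and chemokine genes, 4 of 7 that entered were higher and 1 lower against run 1 PEP-619WW, and 3 of 9 higher and 3 lower against run 1 PEP-WT. Among the latter, *Ifng* and *Ccl4* were also at least 2-fold lower in PEP-619WW between the run 1 genotypes. The list medians were 1.06 and 0.25, beside 0.15 and 0.16 over all genes, of which 8.43% and 10.6% were higher and 1.75% and 2.78% lower.

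Genes of the early NK stage had medians above that of all genes, and those of the late stage below it. Over all genes, 8.43% and 10.6% were higher and 1.75% and 2.78% lower. Of 11 immature stage genes, 3 of 8 that entered were at least 2-fold higher and 0 lower against run 1 PEP-619WW (*Tcf7*, *Ltb*, *Emb*), with a median log2 ratio of 0.68. Against run 1 PEP-WT, all 11 entered, 6 were higher, among them *Cd27*, *Tcf7*, *Emb*, *Ctla2a* and *Cd226*, and 1 lower (*Cd160*), with a median of 1.21. Of 11 mature stage genes, 0 of 6 were higher and 1 lower (*Klrg1*) against run 1 PEP-619WW, with a median of -0.76. Against run 1 PEP-WT, 1 of 8 was higher (*Itga2*) and 3 were lower (*Klrg1*, *Cma1*, *Ly6c2*), with a median of -0.67. Between the run 1 genotypes, *Ctla2a* and *Itga2* were also at least 2-fold higher in PEP-619WW and *Cd160* lower. The medians over all genes were 0.15 and 0.16.

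*Tcf7*, which encodes TCF-1 of early NK cells, was at 168 CPM (149.9 to 187) in run 2 PEP-619WW, 70.8 (33.9 to 130.2) in run 1 PEP-619WW and 35.0 (14.1 to 72.0) in run 1 PEP-WT, on 318, 10 and 7 UMIs. The log2 ratios were 1.25 (0.35 to 2.32) and 2.26 (1.20 to 3.59). *Emb*, which encodes the adhesion protein embigin, was at 365 CPM (339 to 393) against 99.1 (54.2 to 166) and 115 (72.8 to 172), and its intervals likewise did not overlap between runs. *Cd27* was at 93.9 CPM (80.6 to 109) against 70.8 (33.9 to 130.2) and 14.98 (3.09 to 43.8), so that only the run 1 PEP-WT gate was apart, on 3 UMIs.

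*Klrg1*, which encodes an inhibitory receptor for cadherins on late NK cells, was at 83.9 CPM (71.4 to 98.0) in run 2 PEP-619WW, 241 (167 to 336) in run 1 PEP-619WW and 185 (130.1 to 255) in run 1 PEP-WT. The log2 ratios were -1.52 (-2.06 to -0.94) and -1.14 (-1.66 to -0.58), and the gene was detected in 17.2%, 43.2% and 40.0% of barcodes. In CD3+ barcodes it differed in the opposite direction, with log2 ratios of 1.52 and 1.28. *Cma1*, which encodes a chymase, was at 54.4 CPM (44.4 to 65.9) against 184 (120.2 to 269.6) and 169.8 (118 to 237). *Itgam* was at 122 CPM (107 to 139) against 241 (167 to 336) and 205 (147 to 278), short of 2-fold, and after thinning its log2 ratios were 0.70 and -0.07. *S1pr5* and *Cx3cr1*, 2 other late genes, were at 35.4 and 23.2 CPM and rested on no more than 8 UMIs in either run 1 gate, so a difference was not detectable at this depth.

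Among 16 transcription factors of the NK lineage, *Klf2*, which encodes a regulator of lymphocyte egress, was at least 2-fold lower against both run 1 gates, at 264 CPM (242 to 289) against 629.9 (506 to 775) and 764 (648 to 895). Its log2 ratios were -1.25 and -1.53, and -0.81 and -1.07 in CD3+ barcodes. Beside it, *Tcf7* alone of 11 factors that entered passed 2-fold against run 1 PEP-619WW, and *Eomes*, *Tcf7* and *Ikzf2* of 13 did so against run 1 PEP-WT, all higher. Of all genes, 8.43% and 10.6% were higher and 1.75% and 2.78% lower. *Eomes* was at 323 CPM (298 to 350.1) in run 2 PEP-619WW, 212 (143 to 303) in run 1 PEP-619WW and 54.9 (27.4 to 98.3) in run 1 PEP-WT. Its log2 ratio was 1.95 between the genotypes of run 1 and 0.61 between the runs of PEP-619WW. *Tbx21* was at 118 CPM (103 to 135), 191 (126 to 278) and 135 (88.8 to 196), with overlapping intervals. Its log2 ratios were -0.69 (-1.27 to -0.06) against run 1 PEP-619WW and -0.19 (-0.77 to 0.44) against run 1 PEP-WT, both short of 2-fold.

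Of 20 genes for receptors and adaptors, 16 beside the gate genes entered against run 1 PEP-619WW, and 0 were 2-fold higher or lower, beside 8.43% and 1.75% of all genes, at a median log2 ratio of -0.03. The adaptor gene *Hcst* (DAP10) was at -0.81 (-1.10 to -0.50). Against run 1 PEP-WT, 4 of 17 were higher (*Klrb1b*, *Cd226*, *Crtam*, *Il2rb*) and 0 lower, beside 10.6% and 2.78% of all genes. The log2 ratios of *Cd226*, 4.11 (1.61 to 9.42), and *Crtam*, 1.44 (0.04 to 3.35), had wide intervals. *Cd226* is also counted among the immature stage genes. *Klrb1b* was also higher in PEP-619WW between the run 1 genotypes, with a log2 ratio of 1.06 (0.11 to 2.04). *Klrk1* was at 845 CPM (804 to 887) against 871 (724 to 1039) and 599 (497 to 716), and the adaptor gene *Tyrobp* (DAP12) at 2464 (2394 to 2536) against 2491 (2238 to 2766) and 2197 (1997 to 2412). *Il2rb* was at 1249 CPM (1199 to 1300) against 1012 (853 to 1192) and 529 (433 to 640.2). Of 10 Ly49 genes, 6 entered in each comparison and only *Klra1* passed 2-fold, lower than in run 1 PEP-WT at 93.9 against 225 CPM, where 2.78% of all genes were lower. *Klra1* was also lower in PEP-619WW between the run 1 genotypes, with a log2 ratio of -2.18 (-3.58 to -1.02). Its ratio of run 2 over run 1 PEP-619WW was 0.92 (-0.15 to 2.26). Against run 1 PEP-619WW the Ly49 median was -0.44, with *Klra8* at -0.84 (-1.14 to -0.52), *Klra4* at -0.57 (-0.88 to -0.24) and *Klra9* at -0.53 (-0.94 to -0.09). *Ptpn22* itself was at 256 CPM (234 to 280.3) in run 2 PEP-619WW, 248 (173 to 345) in run 1 PEP-619WW and 185 (130.1 to 255) in run 1 PEP-WT, with overlapping intervals.

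Of 10 chemokine and lipid trafficking receptor genes, *Ccr2*, which encodes the receptor for CCL2, was at least 2-fold higher against both run 1 gates. It was at 727 CPM (689 to 767) against 311 (226 to 418) and 139.8 (92.9 to 202), and in CD3+ barcodes its log2 ratios of 2.53 and 3.06 stood beside 1.22 and 2.38 in the NK gate. *S1pr4* was lower than in run 1 PEP-619WW, at 64.9 against 155.7 CPM, and *Ccr7* was higher than in run 1 PEP-WT, on few barcodes (3.58%). *Itgb1*, which encodes the integrin β1 chain, was at 714 CPM (676 to 753) against 248 (173 to 345) and 255 (189.6 to 335), and was detected in 74.4% of barcodes against 54.1% and 54.0%. Also named by the rule were *Kcnq1ot1*, a noncoding RNA of an imprinted domain, at 197 against 56.6 and 29.96 CPM, *Zfp512* at 149.9 against 56.6 and 44.9, and *Ubald2* at 187 against 70.8 and 69.9.

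Some genes of glycolysis and hypoxia were higher in the run 2 gate, and the list was also higher outside it. Of 12 such genes, 4 of 9 were at least 2-fold higher and 0 lower against run 1 PEP-619WW, with a median log2 ratio of 0.99, and 4 of 10 higher and 0 lower against run 1 PEP-WT, with a median of 0.92. Over all genes, 8.43% and 10.6% were higher, with medians of 0.15 and 0.16. The level was uneven within the run 2 gate. In its clusters 1 to 5, described below, the list summed to 2457, 1263, 3095, 4932 and 4630 CPM. The run 1 gates stood at 1522 (PEP-619WW) and 1818 (PEP-WT), above cluster 2. *Eno1*, a glycolytic enzyme gene, was at 236 CPM (215 to 259) against 84.9 (43.9 to 148) and 84.9 (49.5 to 136), and *Hif1a*, which encodes the oxygen-responsive factor, at 161 (143 to 180.1) against 77.9 (38.9 to 139) and 54.9 (27.4 to 98.3). All barcodes outside the gate summed to 6914 CPM of these 12 genes in run 2 PEP-619WW, 2263 in one run 1 library and 2138 in the other, and log2 ratios in CD3+ barcodes were 1.34 and 1.62 for *Eno1* and 0.92 and 1.02 for *Hif1a*.

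Interferon-stimulated genes were mostly lower against run 1 PEP-WT. Of 21 genes, 7 of 9 that entered were at least 2-fold lower and 0 higher, with a median log2 ratio of -1.54, whereas against run 1 PEP-619WW 1 of 6 was lower and 0 higher, with a median of -0.42. Over all genes, 2.78% and 1.75% were lower. Between the run 1 genotypes, 5 of 12 genes of this list were lower in PEP-619WW and 0 higher, beside 7.62% and 5.12% of all genes, so genotype and run cannot be told apart in the comparison with run 1 PEP-WT. *Ifi27l2a* was lower against both, at 69.1 CPM (57.8 to 82.0) against 354 (263 to 467) and 989 (856 to 1136). *Isg15* was at 58.6 CPM (48.2 to 70.5), 63.7 (29.1 to 121) and 279.6 (211 to 363), so that the intervals of both PEP-619WW gates overlapped and run 1 PEP-WT was apart. *Bst2*, which encodes tetherin, had the same order at 99.2, 120.3 and 449 CPM.

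Proliferation genes differed mainly from the run 1 PEP-619WW gate. Of 13 genes, 5 of 6 were at least 2-fold higher against run 1 PEP-619WW and 0 lower, while 1 of 8 was higher and 1 lower against run 1 PEP-WT. Over all genes, 8.43% and 10.6% were higher and 1.75% and 2.78% lower. Between the run 1 genotypes, 5 of 6 genes of this list were lower in PEP-619WW, beside 7.62% of all genes, and 1961 of the 2372 UMIs of the list in the run 2 PEP-619WW gate lay in 36 barcodes, cluster 5 below. *Mki67* was at 127 CPM (111 to 144) in run 2 PEP-619WW, 21.2 (4.38 to 62.0) in run 1 PEP-619WW, on 3 UMIs, and 169.8 (118 to 237) in run 1 PEP-WT. *Stmn1* was at 230.1, 42.5 and 464 CPM. Of 16 immediate early and heat shock genes, 0 of 7 passed 2-fold against run 1 PEP-619WW, and of 12 against run 1 PEP-WT 5 were lower (*Fos*, *Fosb*, *Jun*, *Egr1*, *Ier2*) and 2 higher (*Nr4a3*, *Hspa1b*). Between the run 1 genotypes, 4 of 10 genes of this list were lower in PEP-619WW and 0 higher, beside 7.62% and 5.12% of all genes.

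In the other lists of lymphocyte genes, the counts can be read beside the 8.43% and 10.6% of all genes that were higher and the 1.75% and 2.78% that were lower. Of 21 cytokine receptor and STAT genes, *Ifnar2* was higher and *Il18r1* lower among 10 that entered against run 1 PEP-619WW, and *Il2rb* and *Ifnar2* were higher and 1 gene lower among 11 against run 1 PEP-WT. Of 15 genes of lymphocyte signaling, 1 of 11 (*Ptpn6*) and 2 of 12 (*Zap70*, *Lcp2*) were higher and 0 lower. Of 9 inhibitory receptor genes, 0 of 1 passed 2-fold against run 1 PEP-619WW, and of 3 against run 1 PEP-WT *Cd96* was higher and *Cd160* lower. Of 14 genes of the interferon gamma response, 0 of 3 and 1 of 5 (*Igtp*, lower) passed it.

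Within the run 2 gate, unsupervised clustering gave 5 groups of 301, 104, 68, 51 and 36 barcodes. The genes that lead a cluster are a description, since the clusters were made from them. Cluster 1 was led by *Sult2b1*, *Slamf6*, *Zfp512*, *Cxcr4*, *Emb* and *Tcf7*. Its summed level of the 11 immature stage genes was 4033 CPM and of the 11 mature stage genes 762. Cluster 2 was led by *Cma1*, *S1pr5*, *Cx3cr1*, *Zeb2* and *Klf2*, with 1641 and 3531 CPM for both lists and the highest sum of cytotoxic genes, 24536 CPM against 7978 to 17708 in the other clusters. Of 2321 UMIs of mature stage genes in run 2 PEP-619WW, cluster 2 held 766, cluster 1 627 and cluster 3 371.

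Cluster 3 held 68 barcodes with genes of ILC1. *Cxcr6*, *Itga1* and *Il7r* are among the genes that lead it, so their detection only describes the cluster. Its T cell genes summed to 912 CPM, against 342 to 819 in the other clusters. T cells without a CD3 UMI therefore cannot be told apart from ILC1 here. Clusters were made at a resolution of 0.5, and at 0.3 there were 4, of which 1 of 88 barcodes held 55 of cluster 3 and 33 of cluster 5, so this split depends on the resolution. *Cxcr6* was detected in 47.1% of the cluster 3 barcodes, *Itga1* in 39.7%, *Tnfsf10* (TRAIL) in 38.2%, *Il7r* in 30.9% and *Cd200r1* in 16.2%, while *Zfp683* had 0 UMIs in the whole run 2 PEP-619WW gate. *Tbx21* was detected in 48.5% and *Eomes* in 10.3%, against 19.9% and 60.8% in cluster 1. *Gzma* was at 3753 CPM, against 5347 in cluster 1. *Cxcr6* was at 48.5 CPM over the whole run 2 gate and at 7.08 and 9.99 in the run 1 gates, below the count needed to enter. *Itga1* was at 61.7 CPM against 21.2 and 19.97. Of the 16 genes of the ILC1 list, 0 of 3 that entered passed 2-fold against run 1 PEP-619WW, and 2 of 5 were higher against run 1 PEP-WT (*Itga1*, *Tmem176b*), beside 8.43% and 10.6% of all genes. The *Itga1* ratio against run 1 PEP-WT was -0.21 in barcodes without UMIs of 7 genes of other cell types. The 11 genes of type 2 and type 3 innate lymphoid cells summed to 47.5 CPM in the run 2 PEP-619WW gate, with a UMI in 11.3% of barcodes and 7 genes at 0, among them *Il22* and *Il13*. Cluster 3 held 43 of their 90 UMIs, at 206 CPM against 23.1 to 35.8 in the other clusters, and 42 of these were of *Rora*, one of its leading genes.

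**Figure D4:**
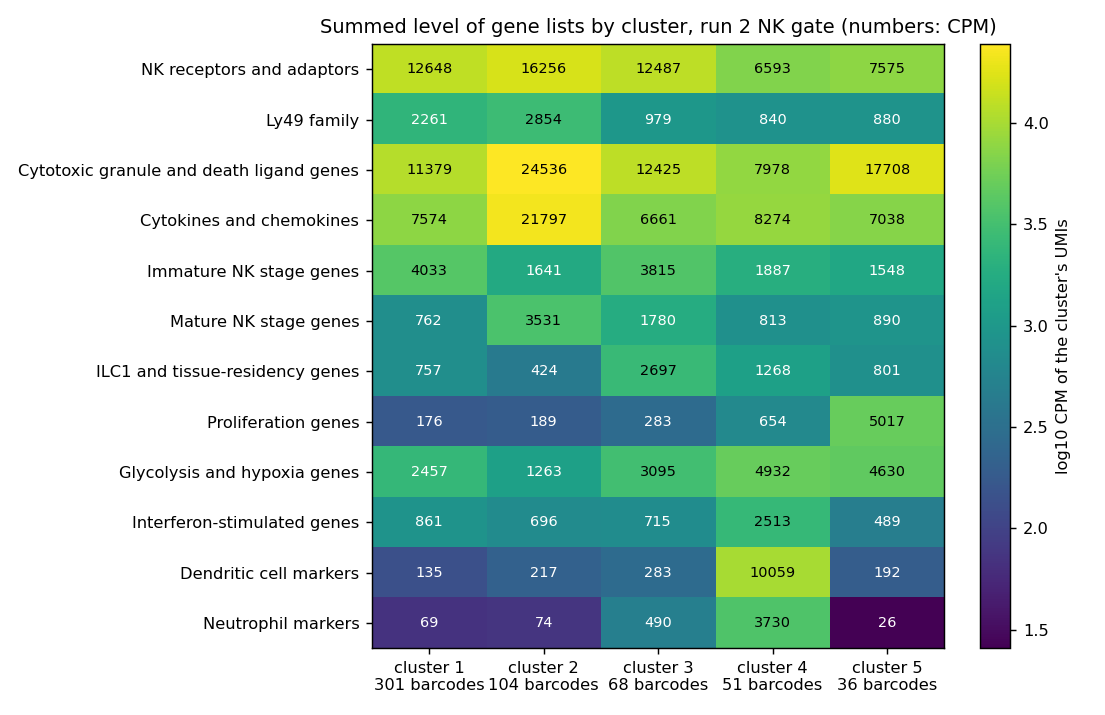
Summed level (CPM, color on a log10 scale) of gene lists in the 5 clusters of the run 2 NK gate, 301, 104, 68, 51 and 36 barcodes. Mature stage and cytotoxic genes peak in cluster 2, ILC1 genes in cluster 3, dendritic cell and neutrophil genes in cluster 4 and proliferation genes in cluster 5.

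Cluster 4, 51 barcodes including the single PEP-WT one, was led by *Ccl22*, *Fscn1*, *Cst3*, *Cd74* and *H2-Aa*, genes of dendritic cells, and was given no name. Dendritic cell genes summed to 10059 CPM there and to between 135 and 283 in the other clusters, and NK receptor genes to 6593 CPM against 7575 to 16256. Cluster 5, 36 barcodes with a median of 9047 UMIs, was led by *Ccl1*, *Gzmd*, *Gzme*, *Pclaf* and *Mki67*, and its proliferation genes summed to 5017 CPM against 176 to 654 elsewhere. It held 2475 of the 3176 *Gzmc* UMIs, on 23 of its barcodes, and 573 more lay in cluster 3, on 26 barcodes. It also held 1086 of 2024 *Xcl1* UMIs, 652 of 654 *Ccl1* UMIs, 364 of 374 *Gzmd* UMIs and 196 of 201 *Gzme* UMIs. Without cluster 5, the log2 ratios of *Gzmc* were 5.04 and 4.96, against run 1 PEP-619WW and PEP-WT, and those of *Xcl1* 2.07 and 1.35, while *Ccl1*, *Gzmd* and *Gzme* were at or below the level of 3 UMIs in the run 1 gates, where they had 0. The latter 3 genes thus describe few cells. *Gzmc* and *Xcl1* were also higher outside cluster 5, but nearly all *Gzmc* UMIs lay on the 23 barcodes of cluster 5 and the 26 of cluster 3.

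Markers of other cell types were measured in each gate as a whole. The 13 T cell genes summed to 663 CPM in the run 2 PEP-619WW gate, 764 in run 1 PEP-619WW and 534 in run 1 PEP-WT, and 75.5%, 89.2% and 72.0% of barcodes had such a UMI. At least 5 were held by 86 barcodes of the run 2 gate, in which the CD3 genes (by the gate) and *Cd8b1* were at 0. Neutrophil genes summed to 604, 432 and 879 CPM, and to 3730 in cluster 4. Of 8 B and plasma cell genes, summed levels were 149.9 CPM in the run 2 PEP-619WW gate, 7757 in run 1 PEP-619WW and 12629 in run 1 PEP-WT. *Igkc*, an antibody light chain gene, was detected in 1.79%, 100% and 94.0% of these barcodes, and stood at 620.5, 72798 and 50185 CPM in the barcodes outside the gate. Erythroid genes summed to 1.58, 474 and 2901 CPM. Both lists were thus lower in the run 2 gate, and both were also lower outside it. In barcodes outside the gate of run 2 PEP-619WW, run 1 PEP-619WW and run 1 PEP-WT, B and plasma cell genes summed to 1001, 83415 and 59317 CPM. Erythroid genes summed to 45.3, 1741 and 13393 CPM there. Macrophage genes summed to 326 CPM in the run 2 gate against 11192.5 outside it, and to 297 and 240 in the run 1 gates. Melanocyte genes summed to 7.39 CPM in the run 2 gate, on 14 UMIs in 8 barcodes, and were at 0 in both run 1 gates. The upper limits there were 26.1 (PEP-619WW) and 18.4 CPM (PEP-WT), so no difference is shown for these genes. The part of these transcripts in the differences between runs was not tested.

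**Figure D5:**
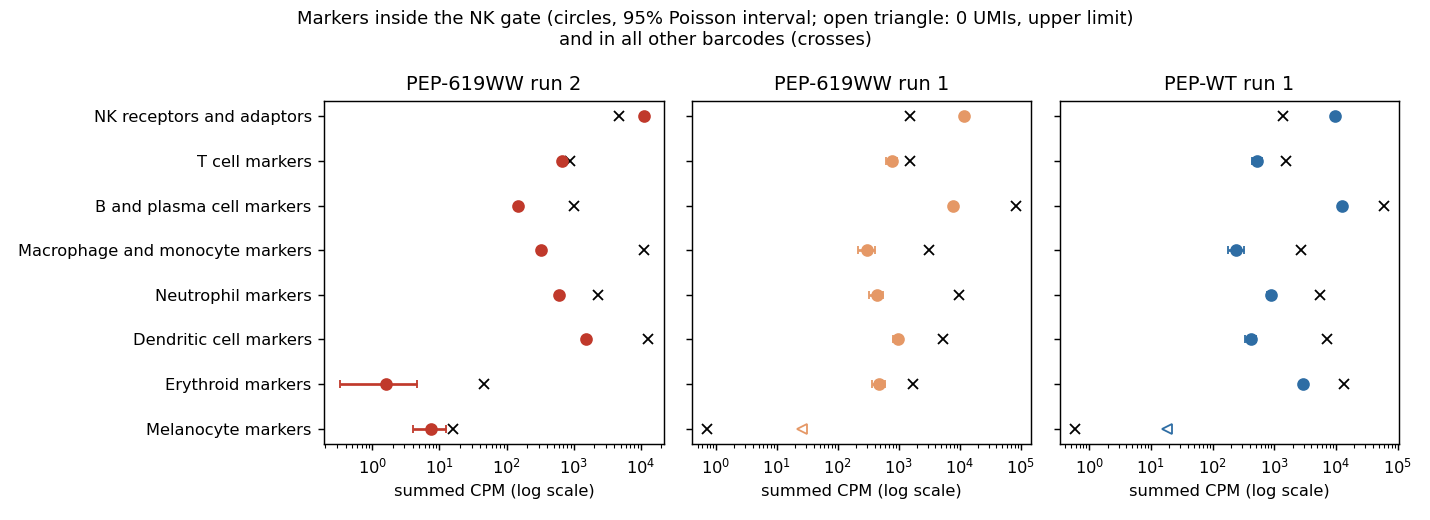
Summed level (CPM, log axis) of 8 marker lists in the NK gate (circles) and in all other barcodes (crosses) of run 2 PEP-619WW, run 1 PEP-619WW and run 1 PEP-WT. The top list holds NK receptors and adaptors, and the lists under it are of other cell types. B and plasma cell and erythroid genes are far lower in the run 2 gate (149.9 and 1.58 CPM) than in the run 1 gates. Dendritic cell genes are higher (1518 CPM against 970 and 414), and their run 2 level is mostly from the 51 barcodes of cluster 4. Their run 1 levels come from *H2-Aa*, *H2-Ab1* and *Cd74* alone, which B cells also express.

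Dendritic cell genes summed to 1518 CPM in the run 2 gate, 970 in run 1 PEP-619WW and 414 in run 1 PEP-WT. In both run 1 gates the sum came from *H2-Aa*, *H2-Ab1* and *Cd74* alone, which B cells also express. B and plasma cell genes summed to 7757 and 12629 CPM in these gates, so the run 1 sums cannot be read as dendritic cells. Most of the run 2 level lay in cluster 4, which held 2586 such UMIs, 2 of them from the PEP-WT barcode, of 2876 in the whole PEP-619WW gate and those 2. With only barcodes that held 0 UMIs of *C1qa*, *C1qb*, *C1qc*, *Lyz2*, *Cd79b*, *Trac* and *Trbc2*, which left 292, 11 and 20 barcodes, the log2 ratios of *Gzmc* were 3.37 and 3.79, of *Xcl1* 2.73 and 1.15, of *Ccl5* -2.29 and -2.30, of *Gzma* -1.29 and -1.57 and of *Klrg1* -1.76 and -1.77. *Itga1* changed direction, and its log2 ratio against run 1 PEP-WT was -0.21 there and 1.63 in the full gate.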

How the data were processed

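The deposited count files hold raw UMI counts per gene and barcode for 32285 genes, made by the authors from 3′ v3.1 libraries. The submitters' processing notes name Cell Ranger (6.0.0) and mm10. No column of per-sample values was left unused, and no test was possible with 1 library per genotype and run. Depth per library and gate is given with the results.

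The gate was applied to raw UMIs. CPM are UMIs of a gene per 1000000 UMIs of the gate. A gene entered a comparison when at least 10 UMIs were expected in the smaller gate at equal CPM, and called means a ratio of at least 2-fold. With 0 UMIs, the ratio was bounded by 3 UMIs per library, and a bound that passed equality was set to 0. Intervals are 95% exact (Clopper-Pearson, Poisson, conditional binomial). Members and gene lists (28 lists, 318 genes, of which 3 were not matched) were chosen with earlier results of these data known. Named genes were at least 2-fold the same way against both run 1 gates, with intervals that exclude equality and a CPM at least 2 times that of all other barcodes in the library with the higher level; the 10 with the largest smaller ratio per direction were named, beside list members. Some of these genes are not reported here. The rule had been written for the run contrasts of both genotypes. Since the PEP-WT gate of run 2 held 1 barcode, the comparison with run 1 PEP-WT was added after seeing the data. Gate genes were left out of list counts. Genes named for clusters, single barcodes and gate edges were chosen after their values were seen. Positions are from GENCODE (GRCm38).

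Thinning to 1000 UMIs was seeded and left out shallower barcodes. Of gate barcodes, 512, 36 and 49 were kept in run 2 PEP-619WW, run 1 PEP-619WW and run 1 PEP-WT. Clusters are Leiden clusters. No doublet caller was run; the gate limits only the genes it names, and gates without the 5% of barcodes with the most UMIs were an alternative, as were other gates, scalings and entry rules. In simulated data for the PEP-619WW gates of both runs, 97.0% of 100 genes set 4-fold higher that entered were called and 0.926% of 1728 unchanged genes, but 21 genes of those set 4-fold lower entered. The simulated counts were Poisson draws without variation between barcodes. These shares therefore do not measure the false calls in the real gates, where single barcodes held a large part of some genes. Figures were drawn with matplotlib (3.10.9), clusters made with scanpy (1.11.5) and igraph (0.11.9), and intervals computed with scipy (1.17.1) under numpy (2.4.6), pandas (2.3.3) and python (3.11.15).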

Additional observations from a re-analysis of the deposited data

How the results depend on the processing

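No paired analysis was possible because no result comes from a test: each genotype and run has 1 library, and the PEP-WT gate of run 2 holds 1 barcode. Of 704 recalculated log2 ratios of 44 named results, 673 kept their sign. The exceptions were *Ccl1*, *Gzmd* and *Gzme* where the run 2 level was at or below that of 3 UMIs in the run 1 gate, *Prf1* (ratios near 0), *Itgam* against run 1 PEP-619WW after thinning (0.70), and *Itga1* against run 1 PEP-WT, which was -0.21 with no UMI of 7 genes of other cell types. The causes were not tested.

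The run 2 PEP-WT share of the gate was 0 under all 7 alternatives for the share. The run 2 PEP-619WW share was 3.78% with at least 2 UMIs of *Ncr1* and *Klrb1c*, 2.57% with both genes, 2.65% with no UMI of the 7 genes and 4.03% after thinning. With both genes the run 1 shares were 0.236% (PEP-WT) and 0.268% (PEP-619WW), and with no UMI of the 7 genes 0.135% and 0.128%.

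Counts of genes past 2-fold, given as higher and lower in turn, changed with the entry filter, the gate, the scaling and the removal of single barcodes. Against run 1 PEP-619WW they were 1072 and 1440 with 1 UMI required, 38 and 10 with 30 expected, 32 and 11 after thinning, 56 and 16 with no UMI of the 7 genes, 305 and 20 without the top barcode of each gene, and 101 and 72 with entry by mean CPM. Size factors gave 119 higher, both gate genes 23 lower and gates without the 5% deepest barcodes 23 lower. Against run 1 PEP-WT they were 1276 and 1640, 80 and 19, 67 and 20, 86 and 24, 522 and 29, and 204 and 154 for the same 6 settings, then 188 and 32 with 2 UMIs, 154 and 30 with both genes and 210 and 41 without the deepest 5%. Size factors gave 216 higher, and 54 were lower with 2 of 5 other NK genes. For the genotypes of run 1 they were 1315 and 1170 with 1 UMI, 10 and 29 with 30 expected, 8 and 17 after thinning, 20 and 31 with no UMI of the 7 genes, 67 and 92 with 2 UMIs, 49 and 70 with both genes and 61 and 77 without the deepest 5%; 83 were lower without the top barcode. Gates without a cluster or a top barcode, entry by mean CPM and the comparison with run 1 PEP-WT were chosen after seeing the data.

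Levels in the run 1 gates rest on 37 and 50 barcodes, so genes under about 10 expected UMIs could not be compared.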

Other observations

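In run 2 PEP-619WW, 795 barcodes held a UMI of *Ncr1* or *Klrb1c*, and 236 of them were left out of the gate. CD3 transcripts were present in 166 of the 236, at least 5 *Lyz2* UMIs in 76, at least 5 *C1qa* and *C1qb* UMIs in 25, *Cd79a* in 15 and *Siglech* in 5, with some barcodes meeting several criteria. Among CD3+ barcodes of this library, 7.82% had a UMI of *Ncr1* or *Klrb1c*. Of 36 barcodes left out for *Lyz2* alone, 27 (75.0%) had at least 2 of *Klre1*, *Klrk1* and *Nkg7*, at a median of 7686.5 UMIs. In run 2 PEP-WT, 11 barcodes held a UMI of *Ncr1* or *Klrb1c*, and 10 of them were left out.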
